A study of Mus musculus with 4 samples.

Results

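The keratins described here are 7 genes of simple and basal epithelia, namely Krt8, Krt18, Krt19, Krt7, Krt17, Krt14 and Krt5. They were taken as every probe set whose array annotation names a single gene and that gene is one of these keratins, which gave 12 of the 34945 probe sets that name 1 gene, and 7 of 18193 genes. The 7 genes were chosen by their signals in these KO and cKO arrays, so the same signals are given as a description and carry no test. RNA came from 4 mouse embryonic stem cell lines, with 1 Affymetrix array each. The KO group was 2 lines (KO lines 1 and 2) labelled UTX knockout, and it was compared with 2 lines (cKO lines 1 and 2) labelled UTX conditional knockout. UTX is a demethylase that removes methyl groups from a lysine of histone H3, and its gene is Kdm6a on the X chromosome. All 4 lines were grown on irradiated fibroblast feeders in medium with 15% serum and 1000 u/ml of the cytokine LIF, then passaged 2 times on 0.1% gelatin to clear the feeders and collected after a night on gelatin. The labels give neither the Cre driver, nor whether a KO line came from the cKO line of its number, nor whether the RNA came from separate cultures, so every p-value measures the spread between these 4 samples, which may be technical.

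Keratins are the intermediate filament proteins of epithelial cells. A filament is assembled from heterodimers of 1 acidic type I keratin (Krt18, Krt19, Krt17 and Krt14 here) with 1 basic type II keratin (Krt8, Krt7 and Krt5), so the genes are used in pairs. Krt8 and Krt18 are the keratins of simple epithelia and are among the first made in the mouse embryo, in the trophectoderm. Krt7 and Krt19 also belong to simple and ductal epithelia, Krt5 and Krt14 to the basal layer of stratified epithelia, and Krt17 to skin appendages and to stressed or wounded epidermis. Desmosomes anchor the filaments at the cell border through desmoplakin.

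Values are MAS5 signals on a linear scale, 1 per probe set and array, scaled by the authors to a common trimmed mean. Genes were tested only above a signal of 77.7, the level below which the dimmer 40% of genes lay and where signal is mostly background. Log2 fold changes are KO over cKO on the scale log2(signal + 4.79). The median signal was 81.6 and 64.9 in KO lines 1 and 2, against 76.6 and 64.4 in cKO lines 1 and 2. Kdm6a, the targeted gene, read 265 and 198 in the KO lines, against 658 and 415 in the cKO lines at its brightest probe set (log2 fold change -1.17, SE 0.27, limma adjusted p = 0.0884). The deleted part of the gene is not given in the sources used here, and probes that lie outside it would not check the label. Of 10916 genes tested, 240 were called in limma at an adjusted p under 0.05, which is 2.2% (1.57% lower and 0.632% higher in KO).

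Promoter sequences from RefSeq (build GRCm38.p6) were at hand for 5 of the 7 genes, namely Krt8, Krt18, Krt7, Krt14 and Krt5, and those of Krt19 and Krt17 were not used. The sequences of Krt8 and Krt18 are shown because these genes encode partners, stand side by side and differed alike below. Krt7 is shown as a type II keratin of the same chromosome whose groups overlapped, and Krt42 as the other keratin that rose. Each runs 5′ to 3′ from 250 bases before the annotated start to 20 bases after it. Capitals mark the TATA box, spelled TATAAA, and the GC box, whose letters are GGGCGG, on either strand.
Krt8 (chr15:102004323-102004592, minus strand): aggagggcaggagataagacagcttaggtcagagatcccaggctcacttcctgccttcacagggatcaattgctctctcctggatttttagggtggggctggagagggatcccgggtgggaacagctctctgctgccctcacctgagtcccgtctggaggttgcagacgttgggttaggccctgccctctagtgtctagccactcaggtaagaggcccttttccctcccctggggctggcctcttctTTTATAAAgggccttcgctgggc
Krt18 (chr15:102027966-102028235, plus strand): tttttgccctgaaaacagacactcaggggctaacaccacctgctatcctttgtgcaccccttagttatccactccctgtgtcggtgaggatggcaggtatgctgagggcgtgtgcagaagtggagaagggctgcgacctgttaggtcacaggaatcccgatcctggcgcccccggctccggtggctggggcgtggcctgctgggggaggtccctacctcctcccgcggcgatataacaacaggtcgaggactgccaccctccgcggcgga
Krt7 (chr15:101412153-101412422, plus strand): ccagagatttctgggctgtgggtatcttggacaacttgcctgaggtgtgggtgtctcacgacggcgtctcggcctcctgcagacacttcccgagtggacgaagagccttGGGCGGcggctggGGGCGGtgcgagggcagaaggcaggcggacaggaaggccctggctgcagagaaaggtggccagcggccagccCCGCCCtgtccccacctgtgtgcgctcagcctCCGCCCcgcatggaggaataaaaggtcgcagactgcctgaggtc
Krt42 (chr11:100269932-100270201, minus strand): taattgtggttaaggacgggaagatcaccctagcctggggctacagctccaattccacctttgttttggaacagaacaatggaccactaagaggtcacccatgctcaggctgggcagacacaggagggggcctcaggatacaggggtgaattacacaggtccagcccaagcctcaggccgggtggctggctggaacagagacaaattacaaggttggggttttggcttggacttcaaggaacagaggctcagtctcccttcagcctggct
In these windows the Krt8 promoter held TATAAA at the annotated start, on both strands with 4 shared bases, and Krt7 held GGGCGG at 4 places. Krt18 and Krt42 held neither motif. Over all 32851 promoters of this length, 12.9% held TATAAA and 34.1% held GGGCGG on either strand. The AP-1 motif TGANTCA, found in 7.23% of promoters, and the TEAD motif GGAATG, found in 13.5%, were searched too. None of these 4 promoters held them in this window, and Krt14 held 1 GGAATG. Krt8, Krt18, Krt7 and Krt42 had a GC content of 58.1%, 61.9%, 65.9% and 54.4%, and Krt5 and Krt14 of 56.7% and 48.5%. The median over all promoters was 52.6%.

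Of the 7 keratins, 5 passed the filter on low signal (Krt8, Krt18, Krt19, Krt7 and Krt17) and 2 did not (Krt14 and Krt5). In 4 genes every KO value was at least 2-fold away from every cKO value. Krt8, Krt18 and Krt19 were lower in KO and Krt17 was higher. Over all genes tested, 1.49% were 2-fold apart in this way, 1.15% lower and 0.339% higher in KO. Because the genes were picked with these values known, nothing is read from that count.

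**Figure D1:**
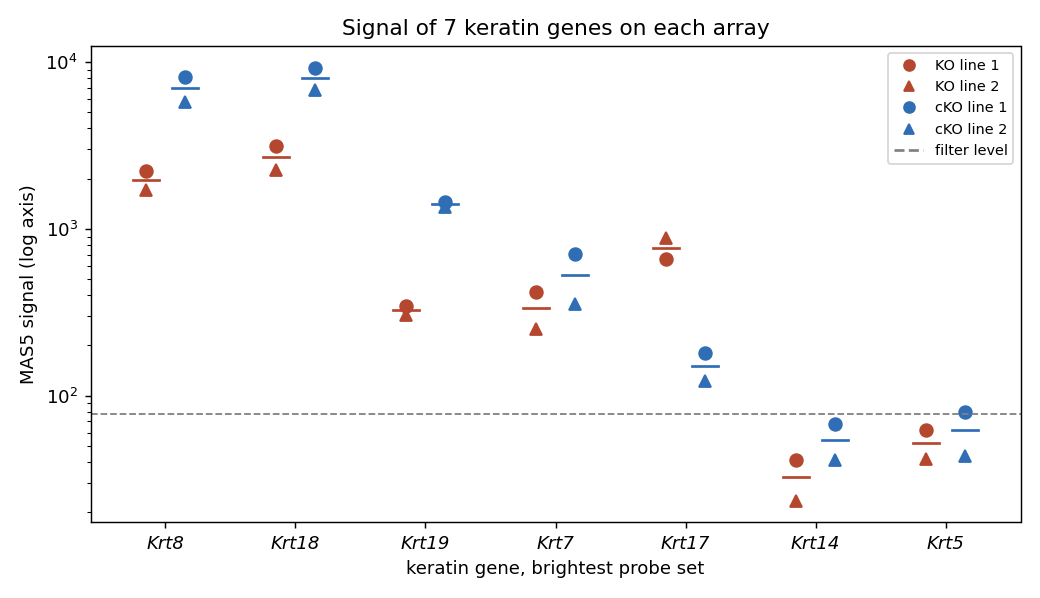
MAS5 signal (log axis) of the brightest probe set of each keratin, with KO left of cKO, circles for line 1, triangles for line 2 and short bars for the mean of 2 lines. KO points lie below cKO points for Krt8, Krt18 and Krt19 and above them for Krt17, the groups overlap for Krt7, and Krt14 and Krt5 lie at or under the dashed filter level of 77.7 on nearly every array.

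Krt8, the main type II keratin of simple epithelia, read 2219 and 1708 in KO lines 1 and 2, against 8103 and 5791 in cKO lines 1 and 2. Both KO lines lay far under both cKO lines, and line 1 was above line 2 in each group. The means were 1963 ± 361 in KO and 6947 ± 1635 in cKO (SD, n = 2 each), so KO kept 28.3% of the cKO mean, with a log2 fold change of -1.81 (SE 0.20). The brightest probe set is of the kind (suffix a_at) that takes up several transcripts of 1 gene. The other 2 Krt8 probe sets carry the suffix x_at, which marks probes that may take up related sequences. They read 2040 and 1474, and 1295 and 1434, in KO, against 6709 and 4942, and 7499 and 5554, in cKO. Their log2 differences were -1.73 and -2.24, so all 3 probe sets were lower in KO, by 3.32-fold to 4.78-fold in the means.

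Krt18, the type I partner of Krt8, read 3147 and 2244 in the KO lines and 9272 and 6768 in the cKO lines. Again both KO values lay under both cKO values, with the closest pair 2.15-fold apart. The means were 2696 ± 638 in KO and 8020 ± 1770 in cKO (SD, n = 2 each), so KO kept 33.6% of the cKO mean (log2 fold change -1.57, SE 0.21). Line 1 exceeded line 2 by 0.49 on the log2 scale in KO and by 0.45 in cKO, nearly the steps of Krt8 (0.38 in KO and 0.48 in cKO).

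Krt19, a small type I keratin of simple and ductal epithelia, read 347 and 305 in the KO lines and 1458 and 1357 in the cKO lines. Its 2 lines differed little within either group, by 0.18 in KO and 0.10 in cKO on the log2 scale. The means were 326 ± 29.9 in KO and 1407 ± 71 in cKO (SD, n = 2 each), a level 4.32-fold lower in KO (log2 fold change -2.10, SE 0.16).

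Krt7, the type II keratin that pairs with Krt19 or Krt18 in ductal epithelia, read 417 and 250 in the KO lines and 705 and 356 in the cKO lines. KO line 1 lay above cKO line 2, so the groups overlapped. The means were 334 ± 118 in KO and 530 ± 247 in cKO (SD, n = 2 each), and the log2 fold change of -0.62 had an SE of 0.36. The step between lines of a group (0.72 in KO and 0.98 in cKO) was larger than the difference between groups.

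Krt17, a type I keratin of skin appendages that is induced in stressed and wounded epidermis, read 655 and 884 in the KO lines and 180 and 122 in the cKO lines. Both KO values were at least 3.64-fold above both cKO values, the opposite direction to its type I relatives Krt18 and Krt19. The means were 769 ± 162 in KO and 151 ± 41.4 in cKO (SD, n = 2 each), a level 5.10-fold higher in KO (log2 fold change 2.32, SE 0.25). The difference was 1.84 between lines numbered 1 and 2.81 between lines numbered 2. A second Krt17 probe set read 39.5 and 23 in KO and 10.9 and 5.56 in cKO. It had the same direction (1.46), but all 4 values lay under the filter level. The mean of both probe sets gave a log2 fold change of 1.89.

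The basal keratins were dim. Krt14 read 41.4 and 23.5 in the KO lines and 67.6 and 41.1 in the cKO lines at its brightest probe set, and all of its 3 probe sets stayed under 77.7 on every array. Krt5, its type II partner in the basal layer, read 62.5 and 41.9 in the KO lines and 80.2 and 43.5 in the cKO lines, so only cKO line 1 passed that level. The KO and cKO ranges of both genes overlapped at these probe sets, and neither gene was tested. At 1 dimmer Krt14 probe set the KO lines read 20.4 and 3.96, under the 38.9 and 39.5 of the cKO lines. A probe set annotated to both Krt17 and Krt14 read 71.5 and 31.2 in KO and 73.5 and 43.6 in cKO, and was left out because it does not separate the 2 genes. The basal pair was thus dim, and the name basal epithelium stands here for the genes and not for a cell type in these cultures. Trp63, the master transcription factor of basal epidermis, read 27 and 15.3 in the KO lines and 18.6 and 24.8 in the cKO lines, which is also under the filter level.

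**Figure D2:**
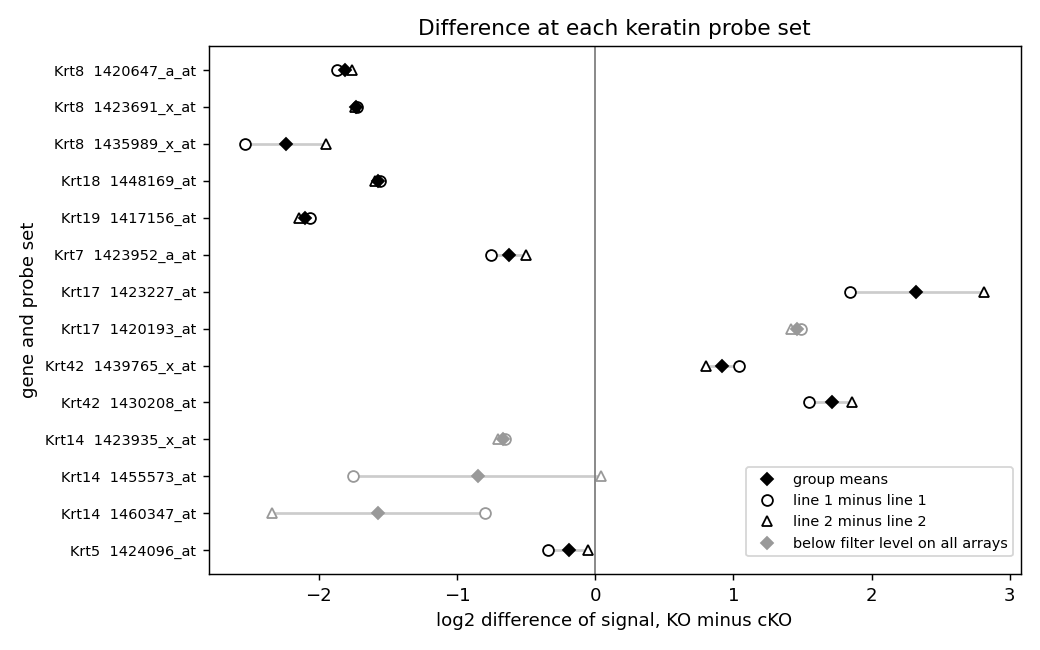
Log2 difference of signal (KO minus cKO) at each of the 12 keratin probe sets and the 2 of Krt42, with diamonds for the group means, circles and triangles for the differences between lines numbered 1 and 2, and grey for probe sets under the filter level on all arrays. The 3 Krt8 probe sets and those of Krt18 and Krt19 lie between -2.24 and -1.57, while Krt17 and Krt42 lie right of 0. The labels do not pair the lines by number.

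The other keratin genes of the mouse were then examined. The array names 41 of them with 49 probe sets, of which 34 genes stayed under 77.7 at every probe set and array, and 3 passed the filter. Krt42, a type I keratin, was the 1 gene of these 3 that rose. It read 2220 and 1977 in the KO lines and 1081 and 1130 in the cKO lines, with both KO values above both cKO values. The log2 fold change was 0.92 (SE 0.15, limma adjusted p = 0.0297, over all 10916 genes). The call was lost without cKO line 1 (0.89, adjusted p = 0.0596) and with arrays centred on their median (0.87, adjusted p = 0.111). Its other probe set, without the x_at suffix, read 2301 and 2663 in KO and 781 and 730 in cKO, a larger log2 difference of 1.71. Krt42 and Krt17 are related in sequence and lie next to each other, and cross-hybridisation between their probe sets was not tested.

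Krt10, the type I keratin of differentiating epidermis, read 328 and 339 in the KO lines and 267 and 341 in the cKO lines (log2 fold change 0.14, limma adjusted p = 0.843). Krt81, a hair keratin, read 193 and 115 in the KO lines and 165 and 85.8 in the cKO lines (0.31, adjusted p = 0.822). In both genes the groups overlapped. Krt20, a keratin of gut epithelium, did not pass the filter and read 57.5 and 31.3 in KO and 150 and 79.8 in cKO, with both KO values lower.

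The keratins lie in 2 clusters, and the genes within each did not share 1 level. In RefSeq order, the stretch of chromosome 15 from Krt7 to Krt18 holds 26 protein-coding genes, of which 23 were measured and 4 were tested. Krt7, Krt8 and Krt18 had negative log2 fold changes, and Krt81 had 0.31 (SE 0.40). The groups overlapped for Krt7 and Krt81. Krt8 and Krt18 stand side by side at its end, Krt18 being the type I gene that lies in the type II cluster. The next gene, Eif4b, a translation initiation factor, read 7730 and 6034 in KO and 7350 and 6625 in cKO (log2 fold change -0.03, limma adjusted p = 0.96). Before Krt7, the autophagy gene Atg101 read 1649 and 1557 in KO and 1716 and 1417 in cKO (0.04, adjusted p = 0.955).

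On chromosome 11 the 6 protein-coding genes from Krt19 to Krt42 include the keratins of both directions. Krt19 at one end was lower in KO, while Krt17 and its neighbour Krt42 at the other end were higher. Krt16, which lies between Krt14 and Krt17, read 66.7 and 14.8 in KO and 37 and 31.5 in cKO, all under the filter level. Past Krt42, the next genes tested were Hap1 (log2 fold change 0.47, limma adjusted p = 0.549) and the desmosome gene Jup (-0.11, adjusted p = 0.893), and neither passed.

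**Figure D3:**
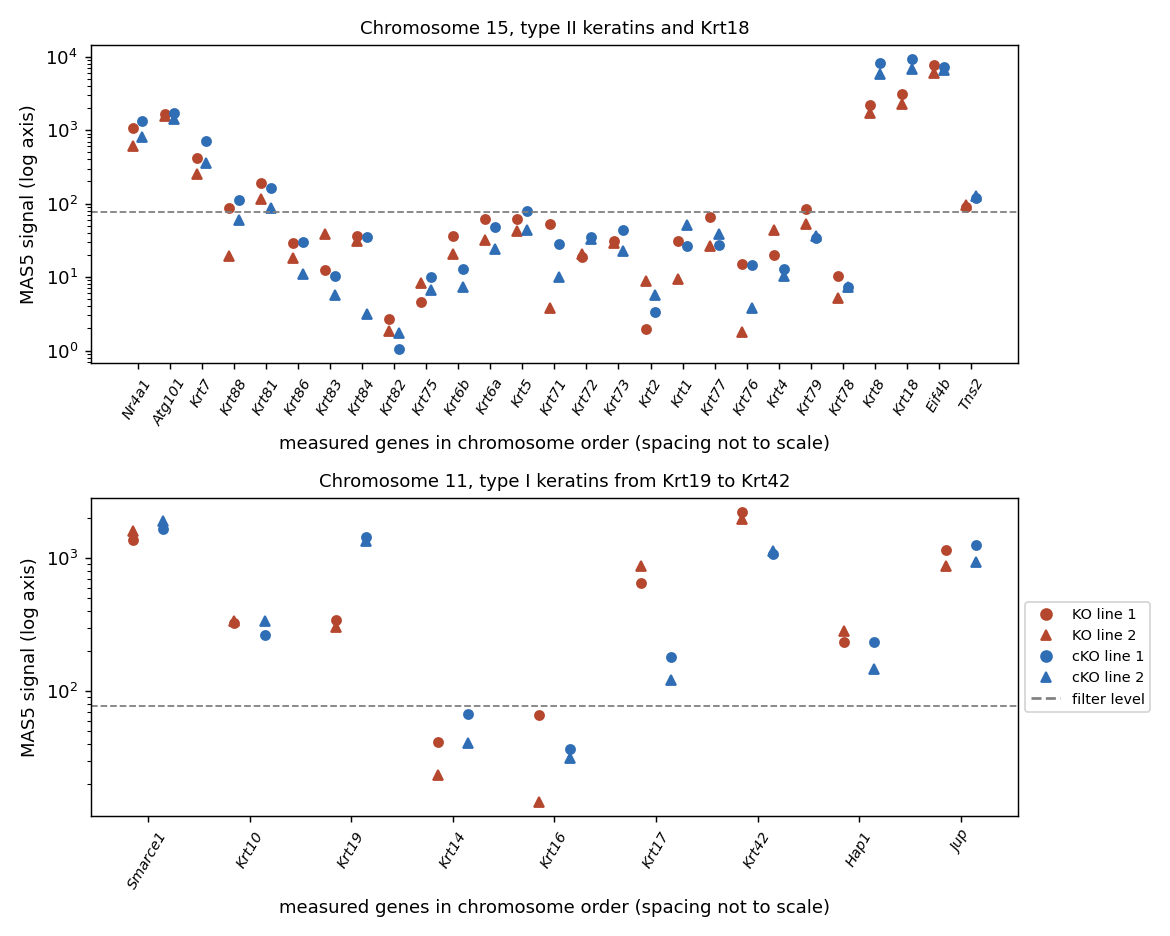
MAS5 signal (log axis) of the measured genes in chromosome order around the keratins of chromosome 15 (top) and chromosome 11 (bottom), with KO left of cKO, circles for line 1 and triangles for line 2. Most keratins lie under the dashed filter level of 77.7. Krt8 and Krt18 stand lower in KO beside Eif4b, and Krt17 and Krt42 stand higher in KO in the cluster where Krt19 stands lower.

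Genes whose profile over the 4 arrays came closest to a keratin were found by the root mean square difference of centred log2 values among the 10916 genes tested. Nearest to Krt8 were Gsn (gelsolin, an actin-severing protein) at 0.05, Dusp14 (a phosphatase) at 0.11, Slc25a24 (a mitochondrial carrier) at 0.11, Sertad4 at 0.12 and Krt18 at 0.13. Gsn read 234 and 176 in KO and 883 and 578 in cKO, the step of Krt8 at a lower signal. Krt19 was number 28 in that order (0.21) and Krt7 number 593 (0.63). Nearest to Krt17 were Fgf18 (a fibroblast growth factor) at 0.16, Msln (mesothelin, a cell surface glycoprotein) at 0.17, Mras (a Ras-family GTPase) at 0.20, Stard8 at 0.28 and AI662270 at 0.33. Krt42 was number 115 for Krt17 (0.76). With 4 arrays, genes that differ between KO and cKO by a like amount come out as near, so this order describes the signals only.

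The lists that follow were set beside the keratins, and their calls rest on the variance trend of limma. Without that trend 0 genes of any list were called, and 28 over all genes. Desmosome and linker genes, which tie keratin filaments to the cell border, mostly did not pass the test. Of 19 genes 18 were measured and 16 tested, and 1 fell, none rose and 15 did not pass. The median log2 fold change was -0.14 against 0.008 over all genes tested. Unadjusted limma p was under 0.05 for 8 of the 16, and for 13.8% of all genes tested, of which 2.2% were called. Dsp, which encodes desmoplakin, read 348 and 211 in the KO lines and 1681 and 861 in the cKO lines. Both KO values lay under both cKO values (log2 fold change -2.13, SE 0.35, limma adjusted p = 0.0326). A second Dsp probe set gave a log2 difference of -2.14, while the dimmest stayed under 33 on every array and gave 0.02. The number called in the list was 2 without KO line 1. With the mean of all 3 Dsp probe sets the call was lost (-1.42, adjusted p = 0.157), and it was lost without a filter (adjusted p = 0.0589). The plakophilin Pkp2 read 1492 and 1479 in KO and 2337 and 2203 in cKO (-0.61, adjusted p = 0.084), and Perp, a desmosome membrane protein, 831 and 933 in KO and 1629 and 1318 in cKO (-0.73, adjusted p = 0.0955). Neither passed, though their groups did not overlap, which holds for 42.6% of all genes tested. Jup (plakoglobin, adjusted p = 0.893) and Pkp3 (adjusted p = 0.875) had overlapping groups.

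Other intermediate filament genes included 3 that fell. Of 13 genes 12 were tested, none rose and 9 did not pass, with a median log2 fold change of -0.49. Unadjusted limma p was under 0.05 for 7 of the 12. Over all genes tested 13.8% reached that and 2.2% were called. Nes (nestin, of neural progenitors) read 344 and 180 in KO and 988 and 805 in cKO (-1.82, SE 0.30, limma adjusted p = 0.0325), although its second brightest probe set gave only -0.20. Prph (peripherin, of peripheral neurons) read 92.2 and 113 in KO and 422 and 323 in cKO (-1.81, SE 0.25, adjusted p = 0.02). The other Prph probe sets stayed under the filter level on every array, with log2 differences of -0.83, 1.15 and -0.1. Nefl, the light neurofilament chain, read 1021 and 1213 in KO and 2140 and 1957 in cKO (-0.88, SE 0.16, adjusted p = 0.0425). Vim (vimentin, the filament of mesenchymal cells) read 1929 and 1671 in KO and 5632 and 3097 in cKO and did not pass (-1.22, adjusted p = 0.0769). The nuclear lamin Lmnb1 read 7618 and 7134 in KO and 7450 and 7163 in cKO, with a log2 fold change of 0.01 (SE 0.10). With the mean of its probe sets Nes was at -0.78 and not called (adjusted p = 0.443), and 0 filament genes were called. The calls of Nes and Nefl were lost without a filter (adjusted p = 0.06 and 0.0528), and that of Nefl also when any array but KO line 2 was left out (adjusted p from 0.0575 to 0.108).

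The next list holds 26 genes known to act on keratin genes, all transcription factors but the receptor Notch1. Of the 26, 20 were tested, 7 of them at an unadjusted limma p under 0.05. Of the 20, 1 rose, none fell and 19 did not pass, with a median log2 fold change of 0.05. The number called was 4 without KO line 1, 2 without KO line 2, 3 without either cKO line and 3 with arrays centred on their median. The gene that rose was Gli1, an effector and target of hedgehog signalling, a pathway under which Krt17 is known to be induced in skin. It read 1914 and 1849 in the KO lines and 752 and 659 in the cKO lines (1.41, SE 0.15, limma adjusted p = 0.0113). A link between Gli1 and Krt17 in these lines was not tested. Gli2 read 1177 and 1146 in KO and 820 and 601 in cKO and did not pass (0.72). The epithelial factors Grhl2 (0.16) and Grhl3 (0.85), and Klf4 (0.89) and Klf5 (0.22), did not pass either. The AP-1 and Ets members Fosl2 (-1.58) and Ets1 (-1.71) had negative values with SEs of 0.58 and 0.55 and did not pass.

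Markers of other cell types were set beside the keratins. For simple epithelium 21 of 22 genes were measured and 20 tested, 7 of them at an unadjusted limma p under 0.05. Of the 20, 3 fell, none rose and 17 did not pass (median log2 fold change -0.31). Over all genes tested 13.8% had an unadjusted p under 0.05 and 2.2% were called. The 3 that fell were the tight junction genes Cldn6 (-1.54, limma adjusted p = 0.0197) and Cldn7 (-0.87, adjusted p = 0.0483) and the splicing regulator Esrp2 (-1.18, adjusted p = 0.0341). Cldn6 read 1627 and 1105 in KO and 3571 and 4259 in cKO, and here cKO line 2 was the higher, unlike in Krt8. Cldn7 lost its call under 8 alternatives and Esrp2 under 4, among them leaving out cKO line 2 for both (adjusted p = 0.153 and 0.122) and KO line 2 for Cldn7 (adjusted p = 0.0803). With the mean of both Esrp2 probe sets its value was -0.48 (adjusted p = 0.434), and the second read 102 and 115 in KO and 102 and 82.2 in cKO. Without cKO line 2 the list had 1 call. Cdh1 (E-cadherin) read 6469 and 6173 in KO and 6439 and 5560 in cKO, and Epcam 6361 and 6220 in KO and 5870 and 7405 in cKO, with overlapping groups in each. The summed signal of the list was 31192 and 28273 in KO and 34839 and 37597 in cKO.

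Markers of the trophectoderm, in which Krt8 and Krt18 are abundant, were mostly dim. Of 13 marker genes 11 were measured and 6 tested, and limma called 0 of them, with 2 at an unadjusted p under 0.05, which 13.8% of all genes tested reached. Without KO line 2 limma called 1, and without cKO line 1 also 1. Cdx2, the defining factor, read 58.9 and 41.5 in KO and 141 and 58.5 in cKO, and Elf5 and Gata3 were under the filter level everywhere. The brightest markers tested, Tfap2c (0.79) and Ascl2 (-0.67), had opposite signs. The summed signal ran from 2130 to 3139 in KO and from 1671 to 2423 in cKO. Tfap2c, at 2186 and 1412 in KO and 1346 and 766 in cKO, was the largest part of each sum. For basal epidermis 11 of 14 genes were measured and 5 tested, and limma called 0 of them, with 2 at an unadjusted p under 0.05. The brightest there were Itga6 (-0.26) and Dst (0.46), and the summed signal ran from 9891 to 10107 in KO and from 10648 to 11069 in cKO. Itga6, Dst and Sfn made up most of each basal sum.

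Markers of primitive endoderm, another early tissue that makes Krt8 and Krt18, had 4 of 14 genes tested, with a median log2 fold change of -1.07. All 4 were at an unadjusted limma p under 0.05, which 13.8% of all genes tested reached. Col4a1 fell and Lama1 rose, both basement membrane chains, and Dab2 (-1.34, limma adjusted p = 0.0576) and Amn (195 and 124 in KO, 308 and 322 in cKO, adjusted p = 0.133), both of the endocytic machinery of visceral endoderm, did not pass. The number called was 0 without cKO line 1 and 4 without KO line 1. Col4a1 read 848 and 892 in KO and 2373 and 1568 in cKO (-1.15, limma adjusted p = 0.0483), with no call without cKO line 1 (-0.85, adjusted p = 0.0911). Lama1 read 1063 and 1202 in KO and 626 and 606 in cKO (0.87, adjusted p = 0.043), and its call was lost without any array but KO line 1 (adjusted p from 0.0791 to 0.105). The defining factors Gata4, Gata6 and Sox17 were too dim to be tested, with Gata4 at 84.2 and 40.2 in KO and 104 and 75.1 in cKO. Cubn, a receptor of the same machinery that was not tested, read 64.9 and 3.21 in KO and 268.8 and 213.6 in cKO. The summed signal was 2841 and 2632 in KO and 4773 and 3493 in cKO, most of it from Col4a1 and Lama1.

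Feeder fibroblast markers were looked at because all lines had grown on feeders. Of 22 genes 21 were measured and 13 tested. All 13 had negative log2 fold changes, as did 5303 of the 10916 genes tested on these arrays. Limma called 3 of the 13, all lower in KO (Tagln, Col5a1 and Thy1), where 2.2% of all genes tested were called. None rose and 10 did not pass, and the list median was -0.83 on the log2 scale. Unadjusted limma p was under 0.05 for 11 of the 13, against 13.8% of all genes tested. The groups did not overlap in 11 of the 13, against 42.6% of all genes tested. Without cKO line 2 limma called 6. Col6a2 and Postn had overlapping groups (adjusted p = 0.796 and 0.909), and Prrx1, which was too dim to be tested, read 60.1 and 53.8 in KO and 30.7 and 31.1 in cKO. Tagln, an actin-binding protein of smooth muscle and fibroblasts, read 2230 and 2469 in KO and 8938 and 7092 in cKO (-1.76, limma adjusted p = 0.0056). The call of Col5a1 (-1.43, adjusted p = 0.0295) was lost without cKO line 1 (adjusted p = 0.0938), and that of Thy1 (-1.20, adjusted p = 0.0483) without either line numbered 2 (adjusted p = 0.0574 when the KO one was dropped and 0.163 for the cKO one). The summed signal of the list was 8794 and 9780 in KO and 24398 and 16980 in cKO, and 4 of the 21 were under the filter level on every array. Most of each sum came from Tagln and the actin gene Acta2. Acta2 read 4163 and 4809 in KO and 10141 and 6210 in cKO and did not pass (-0.83, adjusted p = 0.135). Col1a1, a fibroblast collagen, read 146 and 171 in KO and 618 and 246 in cKO, with 135 and 107 in KO and 719 and 312 in cKO at its second probe set. Col3a1 read 67.8 and 67 in KO and 299 and 145 in cKO. The part of fibroblast RNA in the keratin values was not tested. Array signal from a whole culture cannot tell fewer cells of a type from less RNA per cell.

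Pluripotent stem cell markers were bright on every array. All 10 were tested and limma called 0, with 4 at an unadjusted p under 0.05, which 13.8% of all genes tested reached. The median log2 fold change was 0.23. Pou5f1 read 10504 and 10179 in KO and 10354 and 11273 in cKO. The brightest, Dppa5a and Tdgf1, had log2 fold changes of 0.02 and -0.03. Esrrb read 6669 and 4835 in KO and 3681 and 2392 in cKO (0.94, adjusted p = 0.115), and Nanog 8237 and 5077 in KO and 5533 and 2969 in cKO (0.67, adjusted p = 0.427). Positive values that did not pass were also found for Zfp42 (0.51), Fbxo15 (0.50) and Sox2 (0.37). Without cKO line 1 the number called was 3, and without KO line 2 it was 2. The lowest signal of any of the 10 markers was 2392, for Esrrb in cKO line 2.

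**Figure D4:**
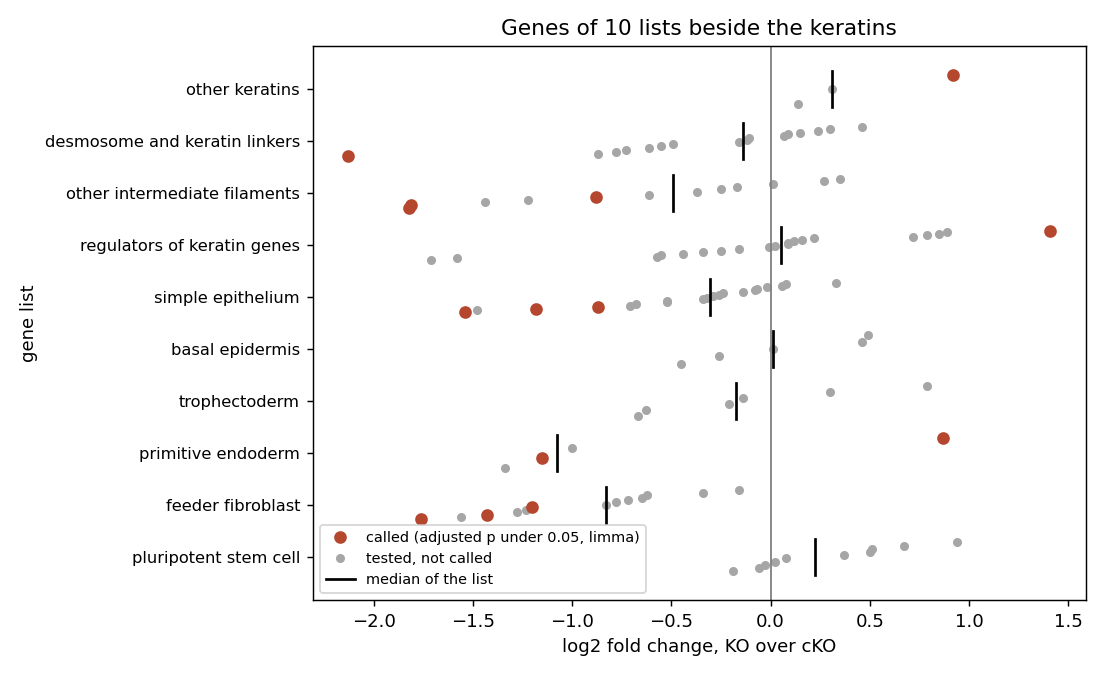
Log2 fold change (KO over cKO) of the tested genes of 10 lists, with large red points for genes called in limma at an adjusted p under 0.05, grey points for the rest and a black bar for the list median. Points are spread within a row by rank only. Among the called genes, Krt42, Gli1 and Lama1 lie right of 0. Dsp, Nes, Prph, Nefl, Cldn6, Cldn7, Esrp2, Col4a1, Tagln, Col5a1 and Thy1 lie left of it. The tested feeder fibroblast genes all lie left of 0.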

How the data were processed

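Per the submitters' processing notes, the deposited intensity of each probe set is a MAS5 signal, on a linear scale. Its version and settings are not given in the sources used here. Trimmed by 2% at both ends, the mean signal came to 500 for each of the arrays. Array annotation named 1 gene for 34945 of 45101 probe sets, several genes for 932 and none for 9160, with 64 controls left out, and 34741 symbols were updated by Entrez identifier (RefSeq, GRCm38.p6). The probe set of highest mean on the log2 scale stood for each of 18193 genes, and the dimmer 40% by that mean were left out. The contrast of KO over cKO was fitted in limma 3.58.1 (R 4.3.3) on log2(signal + 4.79), where 4.79 is the 10th percentile, using eBayes with a trend (2 residual and 5.13 prior degrees of freedom) and Benjamini-Hochberg adjustment. Summaries used Python 3.11.15. The keratins, lists and tests were chosen with earlier results of these data known. Named genes were the keratins, Kdm6a, up to 6 called genes of each list, otherwise its 2 brightest tested, all other tested keratins, the 5 nearest profiles of Krt8 and Krt17, Col1a1 and Col3a1. Further genes, and the cluster neighbours, were chosen after their values were seen. Alternatives changed the pseudocount, filter, normalization, probe set rule, variance trend, line block and arrays used. With 2 lines per group precision is limited.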

Additional observations from a re-analysis of the deposited data

How the results depend on the processing

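The filter, the variance trend and the line block leave a keratin's own signals as they are, so only the other alternatives bear on its value. The log2 fold change ran from -2.06 to -1.57 for Krt8, from -1.82 to -1.33 for Krt18, from -2.19 to -2.01 for Krt19 and from 1.89 to 2.60 for Krt17. That of Krt7 ran from -1.11 without cKO line 2 to -0.14 without cKO line 1. Krt5, which was not tested, reached 0.22 without cKO line 1. The number of genes called, 240, was 147 without a filter, 154 with the lower 60% left out, 129 with probe sets averaged per gene and 28 without the variance trend. It ran from 228 to 432 with 1 array left out, the highest without KO line 1. The 6 genes called in the 4 lists of keratins, linkers, filaments and regulators numbered 3 without a filter, 2 with the mean of probe sets, 0 without the trend, and 6 to 10 with 1 array left out, the highest again without KO line 1. The cause was not tested. Where an array was dropped, the single line remaining in that group is assumed to vary like the other group. Lines of 1 number deviated together (r = 0.52 across genes), but the labels do not pair them. With the line number as a block 1048 of 10916 genes were called. In the 4 lists 20 of 51 tested genes were called, namely 7 linkers, 6 filaments, 6 regulators and 1 other keratin. The calls were 6 each for simple epithelium and feeder fibroblast, 5 for pluripotent markers and 4 for primitive endoderm. Basal epidermis had 2 and trophectoderm 1. No detection calls were used, and signals under 77.7 limit what can be said of Krt14, Krt5 and most other keratins.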
